A study of Caenorhabditis elegans with 2 samples.

Results

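The small heat shock proteins of *Caenorhabditis elegans* are short chaperones built around an alpha-crystallin domain, and 10 of their genes were described here: hsp-16.2, hsp-16.41, hsp-12.1, hsp-12.2, hsp-12.3, hsp-12.6, hsp-17, hsp-25, hsp-43 and sip-1. They were found among the 8730 genes with a read by their sequence names (for example Y46H3A.3 for hsp-16.2), and uniquely mapped reads were summed over the isoforms of a gene. Gene expression was measured by mRNA sequencing of whole young adult worms in 2 libraries, 1 from the N2 Bristol wild type and 1 from strain KU25, a deletion mutant with the allele pmk-1(km25) on chromosome IV. PMK-1 belongs to the p38 family of stress-activated kinases. Worms of both genotypes grew at 20 °C on OP50 bacteria and were then held at 35 °C for 5 h, and the series asks how the kinase influences the response to heat. Unheated worms were not analysed here, so every level is a level after heat, and no induction can be given.

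Small heat shock proteins bind unfolding proteins without using ATP and hold them until HSP70 and its partners refold them. In the worm, the heat shock factor HSF-1 switches on the hsp-16 genes strongly in heat, while several other family members are made without heat in particular tissues or stages. The hsp-16 genes lie in pairs that are read away from a shared stretch of upstream DNA. In the WBcel235 annotation, hsp-16.2 and hsp-16.41 were next to each other on chromosome V on opposite strands, with no coding gene between them, and hsp-12.3 and hsp-12.6 were next to each other on chromosome IV on the same strand.

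Uniquely mapped reads numbered 5.78 M in the wild-type library and 5.23 M in the mutant one. With 1 library per genotype there is no replicate error, and no test of genotype was made. Ratios compare the mutant with the wild type in CPM, the reads of a gene scaled to the library total. Their 95% intervals are exact conditional binomial intervals, which cover counting error only and not differences between cultures or library preparations. Levels of different genes are compared in RPKM (reads per kilobase of listed coding length, scaled to the library total), with exact Poisson intervals. The median log2 ratio was -0.33 over the 5197 genes that reached 50 reads in either library, so a log2 ratio near -0.33 is that of a typical gene.

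The hsp-16 pair held most of the reads of the 10 genes after heat. hsp-16.41, a cytosolic chaperone, had 30634 wild-type and 47241 mutant reads, which is 12259 RPKM (12122 to 12397) and 20907 RPKM (20719 to 21097). It was the gene with the third highest RPKM in both libraries. hsp-16.2, its neighbour and widely used as a reporter of heat stress, had 15133 and 24694 reads, or 5973 RPKM (5878 to 6069) and 10779 RPKM (10645 to 10914). It ranked 15 by RPKM among wild-type transcripts and 6 among mutant ones. Both genes were higher in the mutant library, 1.71-fold (1.68 to 1.73) for hsp-16.41 and 1.8-fold (1.77 to 1.84) for hsp-16.2, and with libraries scaled on markers of body tissues their log2 ratios turned to -0.30 and -0.22. Reads covered 98.9% to 99.5% of both listed sequences. In whole worms, fewer cells of a type and less RNA per cell cannot be told apart.

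Within each library, the pair kept nearly the same proportion. hsp-16.41 had 2.05 times the RPKM of hsp-16.2 in the wild type (2.01 to 2.09) and 1.94 times in the mutant (1.91 to 1.97). The reads of hsp-16.2 per read of hsp-16.41 were therefore 1.06-fold higher in the mutant (1.03 to 1.08), a change that does not depend on how the libraries are scaled. Ratios of the size seen for hsp-16.2 also occurred in other abundant transcripts. Among the 1232 genes that reached 1000 reads in either library, 124 ratios were at least as large as that of hsp-16.2. Among the 85 genes that reached 10000 reads in either library, 20 ratios (hsp-16.2 included) were at least as large as that of hsp-16.2. They included those of cuticle collagen genes such as col-8 (2.97-fold) and the lipid-binding protein genes far-1 (2.44-fold) and far-2 (2.15-fold). The other hsp-16 genes of the worm, hsp-16.1, hsp-16.11, hsp-16.48 and hsp-16.49, were looked up and not found among the genes with a read. Their levels can therefore not be given. Since only uniquely mapped reads were counted, values of any hsp-16 gene are uncertain where its sequence matches another copy.

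sip-1, a small heat shock protein known from oocytes and embryos, was the third abundant member and did not follow the hsp-16 pair. It had 15823 wild-type and 12523 mutant reads, or 5699 RPKM (5610 to 5788) and 4988 RPKM (4901 to 5076). Its rank by RPKM was 16 and 21. In the wild type its level was near that of hsp-16.2, which was 1.05-fold above it (1.02 to 1.07), whereas in mutants hsp-16.2 was 2.16-fold above it (2.11 to 2.21). The CPM ratio of sip-1 was 1.14-fold lower in the mutant (1.12 to 1.17), with a log2 ratio of -0.19 that became 0.14 relative to the median of all genes and -1.26 with scaling on body-tissue markers. The 2 hsp-16 genes together had 2.89 reads per sip-1 read in wild-type worms and 5.74 in mutants, 1.99-fold more (1.93 to 2.04).

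**Figure D1:**
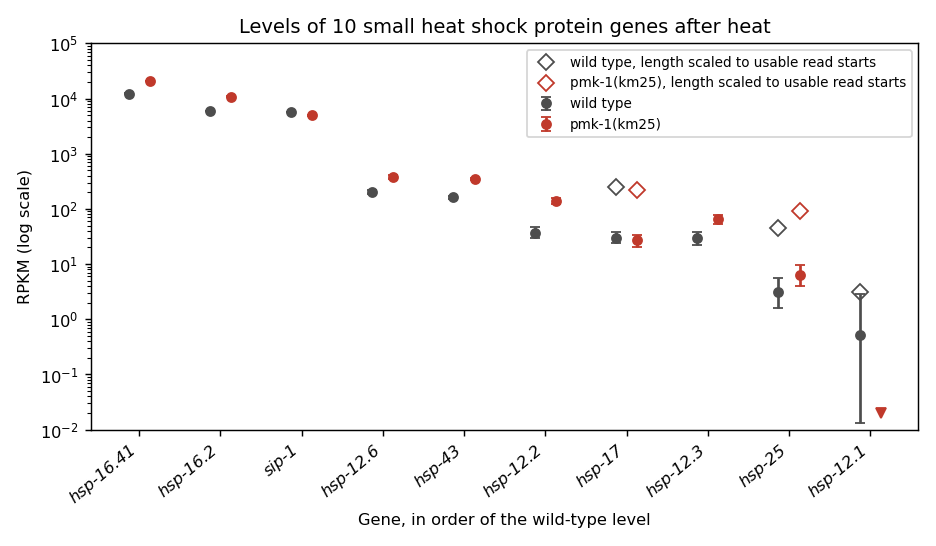
RPKM (log axis) of the 10 genes in the wild-type and mutant libraries, with bars for exact Poisson 95% intervals. Open diamonds show 3 genes with their length scaled to the read positions that could be counted, and the triangle marks hsp-12.1, with 0 reads in the mutant. hsp-16.41, hsp-16.2 and sip-1 lie between 4988 and 20907 RPKM, and all others at or below 381 RPKM.

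The hsp-12 genes encode the smallest proteins of the family, with short ends on either side of the alpha-crystallin domain, and purified HSP-12.6 is known for having little chaperone activity. hsp-12.6, a target of both DAF-16 and HSF-1 in long-lived worms, was the most abundant of them, with 391 wild-type and 664 mutant reads, or 203 RPKM (183 to 224) and 381 RPKM (353 to 411). It was 1.88-fold higher (1.66 to 2.13). hsp-12.2 had 72 and 243 reads, or 37.4 RPKM (29.2 to 47.1) and 140 RPKM (123 to 158), and its 3.73-fold ratio (2.86 to 4.93) was the largest among the 8 members that reached 50 reads in a library. hsp-12.3, the neighbour of hsp-12.6, had 56 and 113 reads, or 29.3 RPKM (22.2 to 38.1) and 65.5 RPKM (54 to 78.7), 2.23-fold higher (1.61 to 3.13). All 3 had more reads in the mutant, although hsp-12.6 turned to a log2 ratio of -0.16 with scaling on body-tissue markers, where hsp-12.2 kept 0.82 and hsp-12.3 0.08. The reads of the neighbours hsp-12.3 and hsp-12.6 stood at 0.143 to 1 (wild type) and 0.17 to 1 (mutant), and the interval of that change reached 1 (1.19-fold, 0.833 to 1.71). hsp-12.1 had 1 read in the wild type and was not listed in the mutant, where 0 reads allow up to 0.574 CPM (3 reads), so no ratio is given.

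hsp-43 has the longest listed coding sequence of the family, 1107 bases against 330 to 660 for the other 9 genes. It had 1032 wild-type and 2013 mutant reads, or 161 RPKM (151 to 171) and 348 RPKM (333 to 363), and was 2.16-fold higher (2 to 2.33). With scaling on body-tissue markers its log2 ratio was 0.04. It was the most abundant member after the hsp-16 pair and sip-1 by reads, and per length it lay just below hsp-12.6, which was 1.26-fold above it in the wild type (1.12 to 1.42) and 1.1-fold in the mutant (1.003 to 1.2).

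hsp-25 and hsp-17 were counted on small parts of their sequences. hsp-25, which is known from the dense bodies and M-lines of body wall muscle, had 12 wild-type and 22 mutant reads, 2.03-fold higher with an interval that reached 1 (0.961 to 4.49). All of these reads were listed for isoform a, and they covered 13% of its length in wild-type worms and 13.2% in mutants. hsp-17 had 78 and 63 reads over its isoforms a and b, 1.12-fold lower with an interval that also reached 1 (0.793 to 1.59), and its log2 ratio of -0.16 turned to 0.17 relative to the median of all genes and to -1.23 with scaling on body-tissue markers. Its reads covered 20.1% to 21.3% of either isoform.

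These patches correspond in size to the sequence that sets one isoform apart from another. The 1290 entries with 1 read each had 49 covered bases, to within 0.5 bases, which gives the read length used for counting. In the WBcel235 annotation, the isoforms of hsp-17 differ by 3 coding bases at an exon border, and 50 of the 402 possible 49-base reads of isoform a and 47 of the 399 of isoform b belong to that isoform alone. Such reads can reach 98 and 95 bases. The bases covered were 96 (wild type) and 95 (mutant) for isoform a and 90 and 94 for isoform b. For hsp-25, 42 of the 612 possible reads belong to isoform a alone and none to the 2 shorter isoforms, reaching 90 bases, and 86 and 87 bases were covered. Reads that isoforms share match more than 1 listed sequence, and whether they were left out for that reason was not tested. If so, the listed RPKM values understate these genes. With the listed length scaled to the usable read positions, hsp-17 stood at 247 RPKM (wild type) and 222 RPKM (mutant) instead of 30 and 26.9, which is near hsp-12.6 in the wild type. hsp-25 stood at 45.8 and 92.9 RPKM instead of 3.14 and 6.37. The single hsp-12.1 read would correspond to 3.08 RPKM. Ratios between the libraries rest on the same positions in both, and this scaling does not enter them. If shared reads were left out, the ratio and levels of hsp-25 describe isoform a alone. Whether isoform use differed between the libraries was not tested. The scaling was chosen after the data were seen and assumes that reads fall evenly along the sequence. For hsp-43 and hsp-16.2, which also have a second isoform in that annotation, reads covered over 98% of the listed sequence. Of the possible reads of isoform a there, 48 of 1059 (hsp-43) and 54 of 390 (hsp-16.2) belong to it alone. Such reads can reach 96 and 102 bases. Coverage thus went beyond these stretches, unlike in hsp-17 and hsp-25, and the reason was not tested.

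The order of levels in the wild type was hsp-16.41, hsp-16.2, sip-1, hsp-12.6, hsp-43, hsp-12.2, hsp-17, hsp-12.3, hsp-25 and hsp-12.1 as listed. The intervals of neighbours reached a ratio of 1 for hsp-12.2 against hsp-17 (1.24-fold, 0.89 to 1.74), hsp-17 against hsp-12.3 (1.02-fold, 0.717 to 1.47) and hsp-25 against hsp-12.1. In the mutant the order was the same except that hsp-12.3 stood above hsp-17 (2.44-fold, 1.78 to 3.37). Levels spanned over 3 orders of magnitude, and the positions of hsp-17, hsp-25 and hsp-12.1 are bound to their restricted counting.

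**Figure D2:**
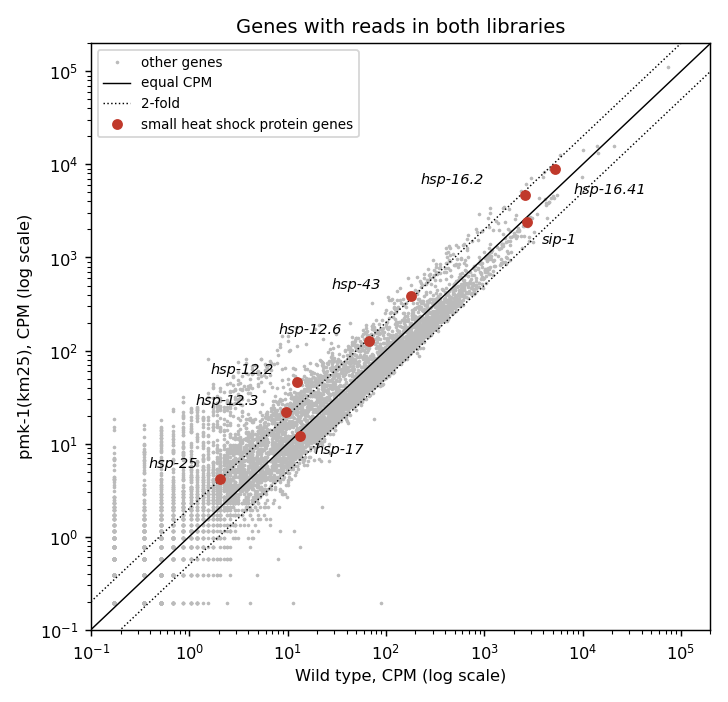
CPM in the mutant against CPM in the wild type (log axes) for genes with reads in both libraries, with 9 of the 10 family genes in red. The solid line marks equal CPM and the dotted lines a 2-fold difference, and sip-1 and hsp-17 lie just below the line of equal CPM while the other 7 lie above it.

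Across the family, 3 of the 8 genes that reached 50 reads in a library had a mutant level at least 2-fold above the wild type and an interval excluding 1, namely hsp-12.2, hsp-12.3 and hsp-43. Of all genes at that level, 17.6% did. None of the 8 was at least 2-fold lower, against 1.75% of all genes. At 1.5-fold, 6 of the 8 were higher, against 25% of all genes, and none was lower, against 27.6%. The median log2 ratio of the 8 genes was 0.88, and that of all genes -0.33. Both hsp-25 and hsp-12.1 fell under the level of 50 reads. Ranked among the 5197 genes, which no scaling changes, the ratios of hsp-16.41, hsp-16.2, hsp-12.6, hsp-43 and hsp-12.3 lay between the percentiles 78.1 and 85.2, that of hsp-12.2 at 93.3, and those of sip-1 and hsp-17 at 57.5 and 58.6.

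All 10 genes together had 63232 wild-type and 87576 mutant reads, 1.09% and 1.67% of each library, which is 1.53-fold higher (1.52 to 1.55). Without the hsp-16 pair the other 8 genes had a ratio of 0.99 (0.969 to 1.01), most of it from sip-1. Leaving out sip-1 as well, the remaining 7 genes had 1642 and 3118 reads, 2.1-fold higher (1.98 to 2.23).

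The reads of the 10 genes leave out family members without a listed read, such as hsp-16.1. Shares of these reads do not depend on the scaling of the libraries. hsp-16.41 took 48.4% of them in the wild type (Clopper-Pearson 95% interval 48.1 to 48.8) and 53.9% in the mutant (53.6 to 54.3). hsp-16.2 took 23.9% (23.6 to 24.3) and 28.2% (27.9 to 28.5). The share of sip-1 was 25% (24.7 to 25.4) in wild-type worms and 14.3% (14.1 to 14.5) in mutants. The other 7 genes took 2.6% (2.47 to 2.72) and 3.56% (3.44 to 3.69). In counting error alone the shares in the 2 libraries were apart for each of these.

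**Figure D3:**
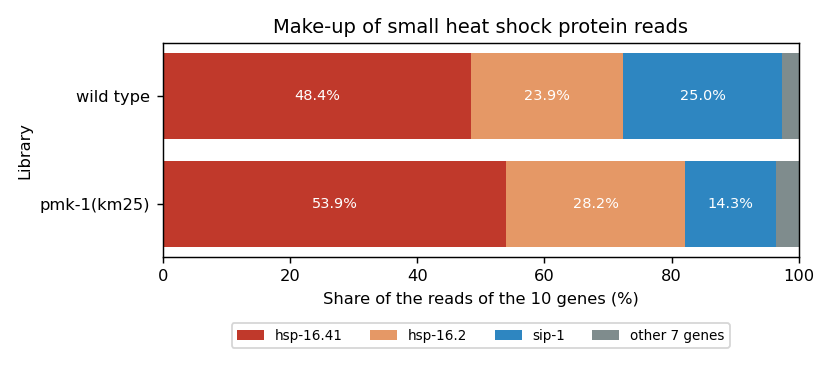
Share (%) of the reads of the 10 genes held by hsp-16.41, hsp-16.2, sip-1 and the other 7 genes in each library. The sip-1 share is 25% for wild-type and 14.3% for mutant worms.

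Ratios of one member to another within a library follow from the values above and need no scaling of the libraries. Among the 28 pairs of the 8 genes, the interval of the change between libraries excluded 1 in 20, with no adjustment for the number of pairs. sip-1 and hsp-17 were grouped after their ratios were seen to be the lowest, which fixes that their ratio was the smaller one in the 12 pairs with 1 of the other 6 genes, and in all 12 the interval excluded 1. Reads of hsp-43 per read of sip-1 were 2.46-fold higher in the mutant (2.28 to 2.67), those of hsp-12.2 4.26-fold (3.27 to 5.55) and those of hsp-12.6 2.15-fold (1.89 to 2.44). hsp-17 against sip-1 showed 1.02-fold (0.732 to 1.42). hsp-12.2 had the largest ratio of the 8 genes, which fixes that it stood above each of the 5 others in its change. The difference was 1.67-fold (1.08 to 2.58) against hsp-12.3 and 1.99-fold (1.47 to 2.7) against hsp-12.6. Among the 10 pairs left, 3 intervals excluded 1, that of the hsp-16 genes with each other and those of hsp-43 with hsp-16.2 (1.2-fold in favour of hsp-43) and with hsp-16.41 (1.26-fold).

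**Figure D4:**
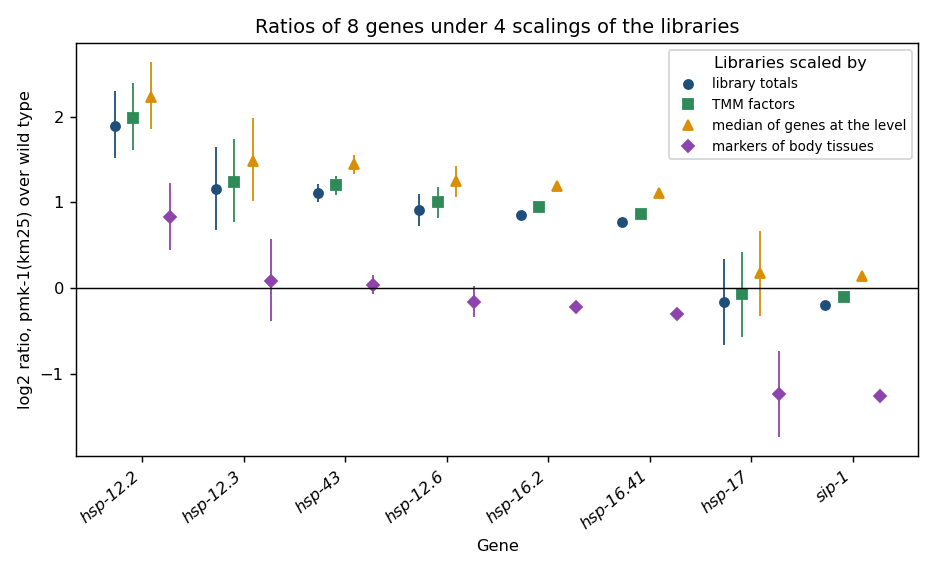
Log2 ratio (mutant over wild type) of the 8 genes that reached 50 reads, under 4 scalings of the libraries, with bars for the 95% counting interval. A scaling moves all genes by the same amount, and with scaling on body-tissue markers hsp-12.2, hsp-12.3 and hsp-43 stay above 0, the last 2 with intervals that reach it.

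Tissue markers also differed between the libraries, and their part in the ratios of the family was not tested. Of 9 body wall muscle markers with 50 reads, 7 were higher in the mutant by at least 2-fold (median log2 ratio 1.19, range -0.77 to 1.42), and of 4 pharynx markers all were (median 1.5, 0.99 to 1.58). The medians were 0.99 for 6 neuron markers, 3 of them at least 2-fold higher, 0.83 for 6 intestine markers with 2, and 0.41 for 3 hypodermis markers with 1. Summed over all listed markers, muscle stood at 2719 CPM in wild-type and 6266 in mutant worms, and intestine at 2836 and 5542. The neuron markers summed to 138 CPM in wild-type and 188 in mutant worms. The muscle gene unc-89 and the hypodermal factor gene elt-3 had 0 reads in the wild type and 5 and 2 in the mutant. Both fell under the level of 50 reads, and how much of their sequence could be counted was not examined. Of 15 oogenic and early embryo markers, 14 had log2 ratios below 0 (median -0.86, range -1.01 to 0.55), 2 (egg-3 and mei-1) were at least 2-fold lower, and the list's sum was 13465 CPM against 9017. The gene above 0 was perm-2. The sperm markers summed to 37.9 CPM in wild-type and 262 in mutant worms, with 5 of 6 at least 2-fold higher.

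Member reads can also be set against a marker read in the same library, which moves all members by 1 factor for each marker. The yolk receptor gene rme-2, which marks oocytes, had 9570 wild-type and 4439 mutant reads. sip-1 had 1.65 reads per rme-2 read in wild-type worms and 2.82 in mutants, 1.71-fold more (1.64 to 1.78), so it was lower by less than this oocyte marker. Of the 15 oogenic and early embryo markers, 14 had a smaller CPM ratio than sip-1 and 1 a larger ratio. The tropomyosin gene lev-11 had 707 and 1711 reads and the largest CPM ratio of the 9 body wall muscle markers (2.68-fold), so the direction against muscle depends on the marker. Per lev-11 read, hsp-43 was 1.24-fold lower in the mutant (1.11 to 1.39), hsp-16.41 was 1.57-fold lower (1.44 to 1.72) and hsp-16.2 was 1.48-fold lower (1.36 to 1.62), while hsp-12.2 was 1.39-fold higher (1.06 to 1.84). Of the 9 muscle markers, 6 had a larger CPM ratio than hsp-43 and 3 a smaller one, 7 had a larger ratio than hsp-16.41 and hsp-16.2 and 2 a smaller one, and all 9 had a smaller ratio than hsp-12.2. Per read of the pharyngeal myosin gene myo-2, hsp-12.2 was 1.32-fold higher (1.003 to 1.73) and hsp-16.41 was 1.66-fold lower (1.54 to 1.79).

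The HSP70 and HSP90 machinery refolds what small heat shock proteins hold. Of 18 genes of this machinery, 13 were listed and all passed 50 reads. The HSP70 genes hsp-70, F44E5.4 and F44E5.5, and also unc-23 and unc-45, were looked up and not found among the genes with a read. Their levels can therefore not be given, and the values that follow do not cover them. None of the 13 listed genes was at least 2-fold higher or lower, against 17.6% and 1.75% of all genes with 50 reads. These 13 are the genes summarised next. Their median log2 ratio was -0.18, or 0.15 relative to all genes, and they summed to 36269 CPM in wild-type and 35895 in mutant worms. hsp-1, the constitutive HSP70, stood at -0.13 and hsp-90 at 0.16. On library totals, the largest absolute values were -0.65 for chn-1, a ubiquitin ligase that works with chaperones, -0.49 for daf-41, the p23 co-chaperone of HSP90, -0.29 for sti-1, which links HSP70 and HSP90, and -0.28 for cdc-37, which brings kinases to HSP90. Relative to all genes, chn-1 stood at -0.31, daf-41 at -0.16, and sti-1 and cdc-37 at 0.05. The largest absolute value there was 0.49, for hsp-90.

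hsf-1, which encodes the transcription factor that drives hsp-16 expression, had 1233 wild-type and 728 mutant reads and was 1.53-fold lower (1.4 to 1.68). ddl-1 and hsb-1 encode proteins that hold HSF-1 inactive. ddl-1 had 175 and 98 reads, 1.61-fold lower (1.25 to 2.09), and hsb-1 had 117 and 92, with an interval that reached 1 (1.15-fold lower, 0.868 to 1.53) and a log2 ratio of -0.20 that turned to 0.14 relative to all genes. daf-16, the FOXO factor that also acts on small heat shock protein genes, had 45 and 52 reads (1.28-fold higher, 0.841 to 1.95). None of these 4 passed 2-fold, against 17.6% (higher) and 1.75% (lower) of all genes with 50 reads. A drop of at least 1.5-fold was called for 27.6% of those genes. Set against the median of all genes, the log2 values were -0.28 for hsf-1, -0.35 for ddl-1 and 0.69 for daf-16. The other 4 genes of this list were looked up and not found among the genes with a read. Of 8 further alpha-crystallin genes, 1 was listed, Y55F3BR.6, with 237 wild-type and 206 mutant reads (ratio 0.961, 0.794 to 1.16).

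**Figure D5:**
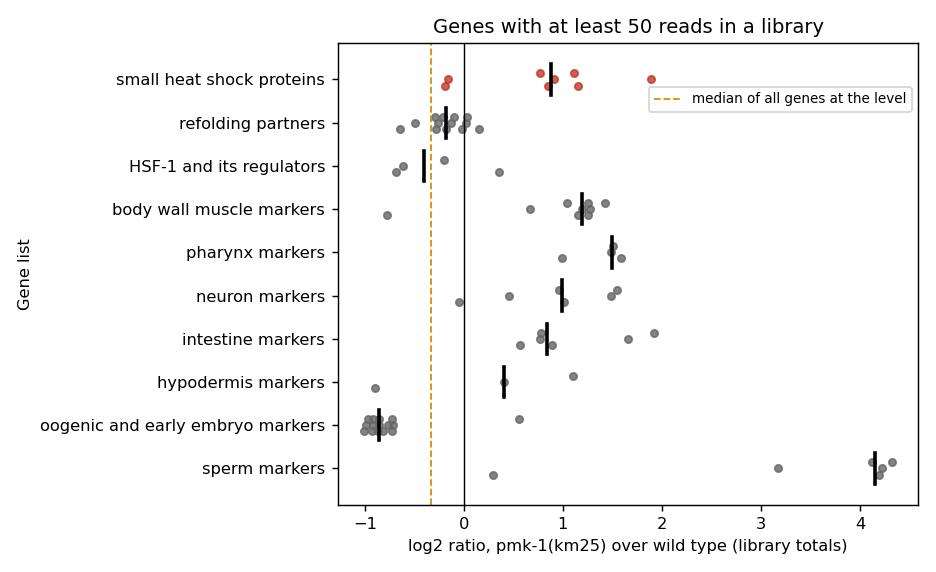
Log2 ratio (mutant over wild type, scaled to library totals) of each gene that reached 50 reads in either library, by gene list, with a black bar at each list's median and a dashed line at the median of all genes (-0.33). The small heat shock protein genes have a median of 0.88, between the refolding partners at -0.18 and the muscle markers at 1.19.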

How the data were processed

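The authors deposited raw counts of uniquely mapped reads for each coding sequence ID (per the file headers), and an ID not listed in a library was given 0 reads. They also deposited RPKM, matched from counts, lengths and totals to a relative error of 2.8e-08, and the percent of each length covered, per the file headers. The aligner is not given in the sources used here, nor is the genome build, and coordinates were left out for that reason. Sequences were not used here, and the planned promoter motif search was not made. Of 9430 IDs, 9365 matched a sequence name in the RefSeq table of WBcel235. Listed lengths of all 10 members equalled a coding length in the WBcel235 Ensembl annotation, from which 49-base windows were counted by position. No coding base of a member was shared with another coding gene. Strand is not stated in the labels, so reads of non-coding genes opposite sip-1 and hsp-25 could not be told apart.

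A call needed 50 reads in a library, a ratio of at least 2 and a 95% interval excluding 1. Log2 ratios used a prior of 0.5 reads. Double ratios with a gene of over 2000 reads, and those to tissue markers, used a log-normal interval from the 4 counts, and others an exact conditional one. Intervals and the limit of 3 reads treat reads as independent molecules. Python 3.11.15, scipy 1.17.1 and edgeR 4.0.16 (TMM factors) were used, and calling was tested on simulated data. The simulated counts held counting error only, with planted changes larger than 2-fold. They do not cover differences between cultures or library preparations, or calls near 2-fold. The members and all lists were chosen with earlier results of these data known. Genes named are all members, all listed genes of the HSF-1 and further alpha-crystallin lists, hsp-1, hsp-90, the 4 refolding partners with the largest absolute log2 ratio, and rme-2, lev-11 and myo-2. col-8, far-1, far-2, unc-89, elt-3, egg-3, mei-1, perm-2, mec-7, mec-12, mec-17, snb-1, unc-104 and egl-3 were named after their values were seen. Some genes that were looked up and not found are named as well.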

Additional observations from a re-analysis of the deposited data

How the results depend on the processing

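No paired analysis was possible because each genotype has 1 library. The count of 3 members called higher was 4 with TMM factors or totals without the 10 most abundant IDs (19.4% and 19.6% of all genes at that level), 6 at a fold of 1.5 (25%) and 6 with the median of all genes set to 0 (23.9%), an alternative added after seeing the data. It was 0 with scaling on 28 markers of body tissues (6.29%), where 2, sip-1 and hsp-17, were called lower, as were 66% of all genes. On that marker scaling, which lowers every log2 ratio by 1.07, the members' median log2 ratio reversed to -0.19 and the pooled ratio to 0.73, and 3 of 10 ratios lay above 1. With the median of all genes at 0 they were 1.22 and 1.93. The pooled ratio was 1.63 with TMM factors, 1.59 with median-of-ratios factors, 1.64 without the most abundant IDs, 1.75 without sip-1 and 0.99 without the hsp-16 pair. The median lay between 0.88 and 0.98 under the other 8 alternatives. Per kilobase, the shares in the wild type and the mutant were 50.3% and 55.5% for hsp-16.41, 24.5% and 28.6% for hsp-16.2, and 23.4% and 13.3% for sip-1. With its most read ID alone, hsp-17 stood at 17.3 and 13.6 RPKM. Scaled to usable read positions, another added alternative, hsp-17 stood at 247 and 222 RPKM, hsp-25 at 45.8 and 92.9 and hsp-12.1 at 3.08 in the wild type. The cause of these shifts between scalings was not tested. hsp-25, with 12 and 22 reads, had an interval reaching 1 except with TMM factors (1.02 to 4.79), totals without the 10 most abundant IDs (1.03 to 4.83) or the median of all genes at 0 (1.21 to 5.67), and that of hsp-17 reached 1 except on body-tissue markers (0.301 to 0.601). hsp-12.1 had too few reads for a ratio.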
